A study of Drosophila melanogaster with 36 samples.

Results

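The regions described here are the Ubx binding regions that were called when Ubx was expressed together with both Hth and Gcm, and in no other Ubx line. They were chosen by the deposited region lists at the threshold of q 1e-2: a region of the Ubx+Hth+Gcm line was kept when no region of the Ubx, Ubx+Hth or Ubx+Gcm line overlapped it by 1 bp. The rule kept 969 of the 8365 regions of the Ubx+Hth+Gcm line (11.6%, 95% exact binomial interval 10.9 to 12.3%), out of 112270 regions in the lists of all 12 lines. These 969 are called the dual-cofactor regions below.

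All lines are stable derivatives of Kc167, a Drosophila cell line that resembles hemocytes, the fly's blood cells. Each line carried a copper-inducible plasmid under the metallothionein promoter, with the proteins in 1 transcript separated by self-cleaving peptides, and cells were sorted for a set range of GFP before anti-GFP ChIP-Seq with 2 replicates and 1 input. In lines with a Hox protein eGFP was fused to it, and otherwise to Hth or Gcm. The Ubx+Hth+Gcm line was induced with 2.5 mM CuSO4 for 24 h, as were the Ubx+Gcm and Gcm lines. The Ubx+Hth, Hth and Ubx lines received 1 mM for 18 h, so that a difference of Ubx+Hth+Gcm from Ubx or Ubx+Hth cannot be told apart from the difference in induction. The lines outside the rule were Dfd+Hth+Gcm (3.7 mM, 22 h), Dfd+Gcm (3.2 mM, 24 h), Dfd+Hth (2.66 mM, 22 h), Dfd (2 mM, 24 h), AbdB+Hth (2.5 mM, 24 h) and AbdB (0.5 mM, 24 h).

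Hox proteins are homeodomain transcription factors that set segment identity along the body axis. Ubx specifies, among other segments, the one that bears the haltere. Homothorax (Hth) and Extradenticle (Exd) are homeodomain proteins of the TALE class that bind DNA together with Hox proteins at composite sites longer than the Hox site alone. Without the Hth plasmid, Exd of Kc167 cells is outside the nucleus, since these cells make no Hth of their own and nuclear entry of Exd depends on it. Glial cells missing (Gcm) is a zinc-containing transcription factor that starts glial development and also acts in hemocytes, and it recognises an octamer unrelated to the Hox site.

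The following sequences are the central 200 bp of 8 of the 14 dual-cofactor regions that held both a Gcm site and an Exd-Hox octamer, shown because in these regions sites for both cofactor systems lie close together. The Gcm site was searched as ATACGGGC, ATACGGGT, ATGCGGGC or ATGCGGGT and the Exd-Hox octamer as TGATTGAT, TGATTAAT or TGATTTAT, on both strands. All sequences are from the plus strand of the Release 6 genome (dm6), and capitals mark the octamers and the Gcm sites.
wdb intron, chr3R:27573349-27573548: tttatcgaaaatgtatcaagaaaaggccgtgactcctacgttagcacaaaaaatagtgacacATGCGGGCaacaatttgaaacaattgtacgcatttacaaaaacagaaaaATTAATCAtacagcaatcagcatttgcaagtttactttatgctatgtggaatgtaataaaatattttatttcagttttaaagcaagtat
Pdfr intron, chrX:2563861-2564060: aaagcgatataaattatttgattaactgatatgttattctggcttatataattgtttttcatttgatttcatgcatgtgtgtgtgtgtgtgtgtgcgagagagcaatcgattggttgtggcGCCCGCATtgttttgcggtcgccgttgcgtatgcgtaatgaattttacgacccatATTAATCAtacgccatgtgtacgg
ssp3 intron, chr2L:18936804-18937003: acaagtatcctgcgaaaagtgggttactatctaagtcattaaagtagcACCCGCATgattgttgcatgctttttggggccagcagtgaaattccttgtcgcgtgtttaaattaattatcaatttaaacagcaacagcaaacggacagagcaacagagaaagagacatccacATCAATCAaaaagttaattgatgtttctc
between CG11307 and CG7166, chr3L:21619825-21620024: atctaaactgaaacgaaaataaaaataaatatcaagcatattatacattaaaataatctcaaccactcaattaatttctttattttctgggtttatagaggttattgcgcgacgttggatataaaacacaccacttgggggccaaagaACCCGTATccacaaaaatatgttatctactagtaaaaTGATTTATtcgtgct
near Ir67a, chr3L:9541766-9541965: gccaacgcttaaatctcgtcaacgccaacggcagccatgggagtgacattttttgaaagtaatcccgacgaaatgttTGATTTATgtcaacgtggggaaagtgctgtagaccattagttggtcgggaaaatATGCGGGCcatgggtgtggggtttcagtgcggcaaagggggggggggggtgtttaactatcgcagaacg
cv-c and natalisin locus, chr3R:14420000-14420199: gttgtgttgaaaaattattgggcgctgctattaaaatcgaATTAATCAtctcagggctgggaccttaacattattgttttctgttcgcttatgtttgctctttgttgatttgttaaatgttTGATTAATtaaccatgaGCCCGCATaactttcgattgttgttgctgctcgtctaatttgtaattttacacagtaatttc
near Or83c, chr3R:6074058-6074257: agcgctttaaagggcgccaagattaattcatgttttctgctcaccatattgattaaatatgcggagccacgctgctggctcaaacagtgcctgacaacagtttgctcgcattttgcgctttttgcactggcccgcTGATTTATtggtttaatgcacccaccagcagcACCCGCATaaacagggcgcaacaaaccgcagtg
Past1 coding exon, chr3R:12698693-12698892: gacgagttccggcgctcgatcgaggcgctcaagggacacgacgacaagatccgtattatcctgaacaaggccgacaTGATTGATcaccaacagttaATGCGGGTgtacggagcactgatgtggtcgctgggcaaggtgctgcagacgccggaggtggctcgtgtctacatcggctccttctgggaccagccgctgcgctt

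The closest pair of these 8 lay in the cv-c and natalisin locus, where an octamer and a Gcm site were separated by 9 bases and a further octamer lay upstream. In the coding exon of Past1, which encodes an EH-domain protein of membrane trafficking, 12 bases separated the sites. They were separated by 24 bases near the odorant receptor gene Or83c, 29 bases between CG11307 and CG7166, 41 bases in the intron of wdb, which encodes a regulatory subunit of the phosphatase PP2A, and 46 bases near the ionotropic receptor gene Ir67a. The spacing was 47 bases in Pdfr, the receptor of the circadian neuropeptide PDF, and wider than in these 7 in ssp3. The matches are a description of these letters and do not show which protein contacted them.

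Of the widest regions at the stricter threshold of q 1e-10, the first 3 are printed by their central 200 bp, since they are the broadest sites at which Ubx was called with both cofactors and in no other Ubx line. Capitals mark Exd-Hox octamers and the 7-base HoxB site, searched on both strands as TTTAT followed by G or T and then by A or G. None of these windows held a Gcm site.
FER intron, chr3R:9390167-9390366: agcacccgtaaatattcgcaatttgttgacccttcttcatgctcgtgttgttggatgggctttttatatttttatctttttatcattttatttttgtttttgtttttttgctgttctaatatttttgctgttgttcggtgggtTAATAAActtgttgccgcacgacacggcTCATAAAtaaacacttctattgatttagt
Scr intron, chr3R:6830213-6830412: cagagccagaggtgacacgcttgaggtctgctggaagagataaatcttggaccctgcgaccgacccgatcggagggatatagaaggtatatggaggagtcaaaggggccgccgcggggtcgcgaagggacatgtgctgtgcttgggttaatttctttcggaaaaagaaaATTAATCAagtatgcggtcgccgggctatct
AdamTS-A intron, chr3R:15462307-15462506: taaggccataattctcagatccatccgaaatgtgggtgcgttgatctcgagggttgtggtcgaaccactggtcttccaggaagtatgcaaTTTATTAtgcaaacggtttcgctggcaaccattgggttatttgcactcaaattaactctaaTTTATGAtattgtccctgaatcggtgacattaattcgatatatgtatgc

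The FER region held a pair of HoxB sites and no octamer in its central window, and so did the AdamTS-A region. FER encodes a non-receptor tyrosine kinase and AdamTS-A a secreted metalloprotease. The Scr region held an octamer. Scr is itself a Hox gene, and this region lay in an intron of it.

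The Ubx+Hth+Gcm regions were first sorted by their overlap with the other Ubx lines, which is the contrast the rule used and is given without a test. Regions called with Hth and Gcm together and in no other Ubx line numbered 969, with a median width of 405 bp. The largest class, 2889 regions (34.5%), was also called in all 3 other Ubx lines, with a median width of 865 bp. A further 1886 regions (22.5%) were shared with Ubx+Gcm only and 638 (7.63%) with Ubx+Hth only. These last classes are called the Ubx+Gcm regions and the Ubx+Hth regions below, and serve with all 7396 other regions of the line as the sets for comparison. Another 1321 regions were shared with Ubx and Ubx+Gcm, 516 with Ubx+Hth and Ubx+Gcm, 139 with Ubx and Ubx+Hth, and 7 with Ubx only.

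**Figure D1:**
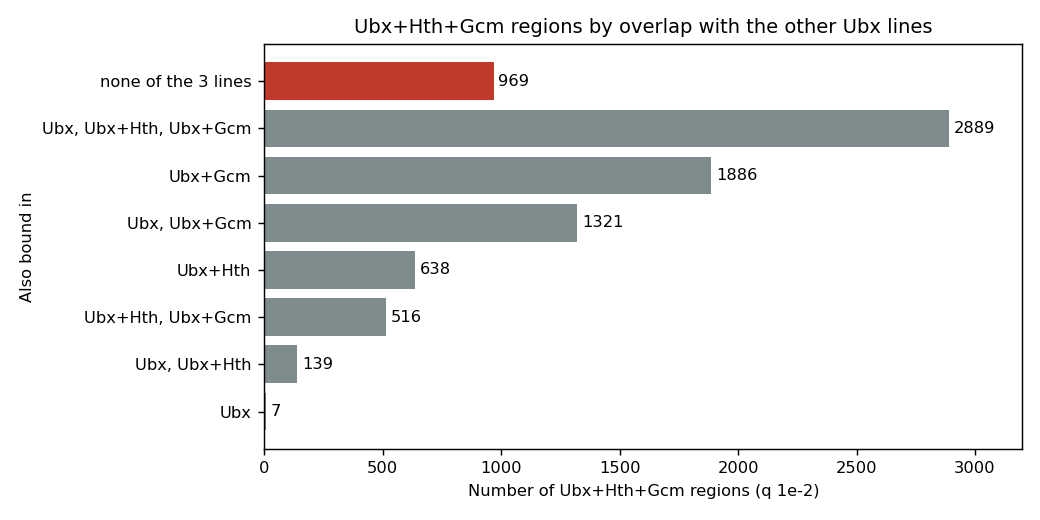
Number of Ubx+Hth+Gcm regions at q 1e-2 (x axis) by the other Ubx lines in which they were also called (y axis). The 969 dual-cofactor regions are the red bar at the top, and the grey bars add up to the other 7396 regions.

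The dual-cofactor regions were narrower and more rarely called at the stricter threshold than the rest. The middle 50% of their widths ran from 330 to 514 bp, with a maximum of 1878 bp, against 424 to 919 bp and a maximum of 5912 bp in all other regions, whose median was 598 bp. A region at q 1e-10 lay in 136 of them (14.0%, interval 11.9 to 16.4%), against 3483 of the other regions (47.1%, interval 46.0 to 48.2%), and in 43.3% of all 8365 regions. The share was 23.6% in the Ubx+Gcm regions and 40.6% in the Ubx+Hth regions. It was 14.1% in the 1321 regions shared with Ubx and Ubx+Gcm, close to that of the dual-cofactor regions. The 2889 regions called in all other Ubx lines had 76.2%. None of the 7 shared with Ubx only, of median width 316 bp, held such a region. The lists give neither signal nor counts, so width and threshold were the measures of strength that could be had. They come from the list that the rule sorted and carry no test.

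A region absent from a list may still lie close to one that is present. The nearest region of another Ubx line was 8 to 92419 bp away, with a median of 2398 bp. It lay within 1000 bp of 314 dual-cofactor regions (32.4%) and within 200 bp of 69. The median distance was 3023 bp to the nearest Ubx+Gcm line region, 7062 bp to Ubx+Hth and 6942 bp to Ubx. The closest members just inside the rule lay 8 bp from another Ubx region near CG3702, 9 bp near Mmp1 and 23 bp in shep. Regions just outside it overlapped another Ubx region by 10 bp in CG9837, 16 bp in MYPT-75D and 39 bp in CG13917. When both sides were held to different thresholds, with Ubx+Hth+Gcm at q 1e-10 against all other lists at q 1e-2, 147 of 4016 regions (3.66%) were left. With all lists at q 1e-10, 675 of 4016 (16.8%) were.

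Whether the cofactors bound these sites without Ubx was read from the Hth and Gcm lines, which the rule did not use. A region of Hth alone overlapped 228 of the 969 dual-cofactor regions (23.5%, interval 20.9 to 26.3%), against 5775 of all 7396 other regions (78.1%, interval 77.1 to 79.0%). Of all 8365 regions of the line, 71.8% overlapped one. The odds ratio was 0.0864 (log2 -3.53, two-sided Fisher's exact test, adjusted exact p = 2.82e-244), and the share was lower in 5 of 5 chromosome arms. It was also below that of the Ubx+Hth regions (383 of 638, adjusted exact p = 7.82e-49) and of the Ubx+Gcm regions (49.0%, adjusted exact p = 1.72e-40). P-values here and below were adjusted over each family of comparisons. They compare regions of merged lists with each other, since no list per replicate was used, and the intervals cover only how many regions were counted. By the rule, every region in the sets for comparison was also called in another Ubx line, and the dual-cofactor regions were not. Of the other regions, 2889 were called in all 3. A lower share in further lists, here and below, may therefore be in part built into the comparison, and how far was not tested.

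A region of Gcm alone overlapped 286 dual-cofactor regions (29.5%, interval 26.7 to 32.5%), against 4019 of all other regions (54.3%, interval 53.2 to 55.5%) and 51.5% of all 8365. The odds ratio was 0.352 (log2 -1.51, adjusted exact p = 1.85e-48), lower in 5 of 5 arms. The dual-cofactor regions stood between the classes that were called with 1 cofactor. Their share was lower than in the Ubx+Gcm regions (60.4%, odds ratio 0.274, adjusted exact p = 6.81e-56) and higher than in the Ubx+Hth regions (8.93%, odds ratio 4.27, adjusted exact p = 1.56e-24), each in 5 of 5 arms. Among regions that held no q 1e-10 region, the shares were 29.2% and 42.3% for Gcm (log2 odds ratio -0.83, adjusted exact p = 1.53e-12) and 25.3% and 72.2% for Hth (log2 odds ratio -2.94, adjusted exact p = 6.73e-139), dual-cofactor regions first in each pair.

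By these lists, the dual-cofactor regions fell into 4 classes. The largest, 512 regions (52.8%), overlapped neither a region of Hth alone nor one of Gcm alone. Another 229 (23.6%) overlapped a Gcm region only, 171 (17.6%) an Hth region only, and 57 (5.88%) both. These classes were counted in the dual-cofactor regions alone, so whether their shares differ from those in the other regions was not tested. A region at q 1e-10 lay in 79 of the 512 (15.4%), in 40 of the 229 (17.5%), in 14 of the 171 (8.19%) and in 3 of the 57 (5.26%).

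The same sites were then read in the lines with another Hox protein. A Dfd+Hth+Gcm region, where the same pair of cofactors was expressed with a different Hox protein, overlapped 353 dual-cofactor regions (36.4%, interval 33.4 to 39.5%), against 5182 of all other regions (70.1%, interval 69.0 to 71.1%) and 66.2% of all 8365. The odds ratio was 0.245 (log2 -2.03, adjusted exact p = 5.97e-90), lower in 5 of 5 arms. Among regions that held no q 1e-10 region the shares were 35.4% and 56.8% (log2 odds ratio -1.26, adjusted exact p = 4.24e-29), and the log2 odds ratio over 4 width classes was -1.23. The shares in the remaining lines were lower as well. All these comparisons are again with regions called in another Ubx line, so a lower share may be in part built in, as for Hth. Dfd regions overlapped 20.9% of the dual-cofactor regions and 73.7% of the other regions (67.6% of all, adjusted exact p = 6.01e-223). Dfd+Hth regions overlapped 34.6% of the dual-cofactor regions and 74.8% of the others (70.1% of all, adjusted exact p = 8.10e-132). For Dfd+Gcm the shares were 20.4% and 71.9% (66.0% of all, adjusted exact p = 3.32e-211). AbdB regions, the longest of the lists used here by covered length, overlapped 45.7% of the dual-cofactor regions and 88.0% of the others (83.1% of all, adjusted exact p = 7.15e-183). For AbdB+Hth the shares were 51.2% and 87.3% (83.2% of all, adjusted exact p = 3.51e-137).

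**Figure D2:**
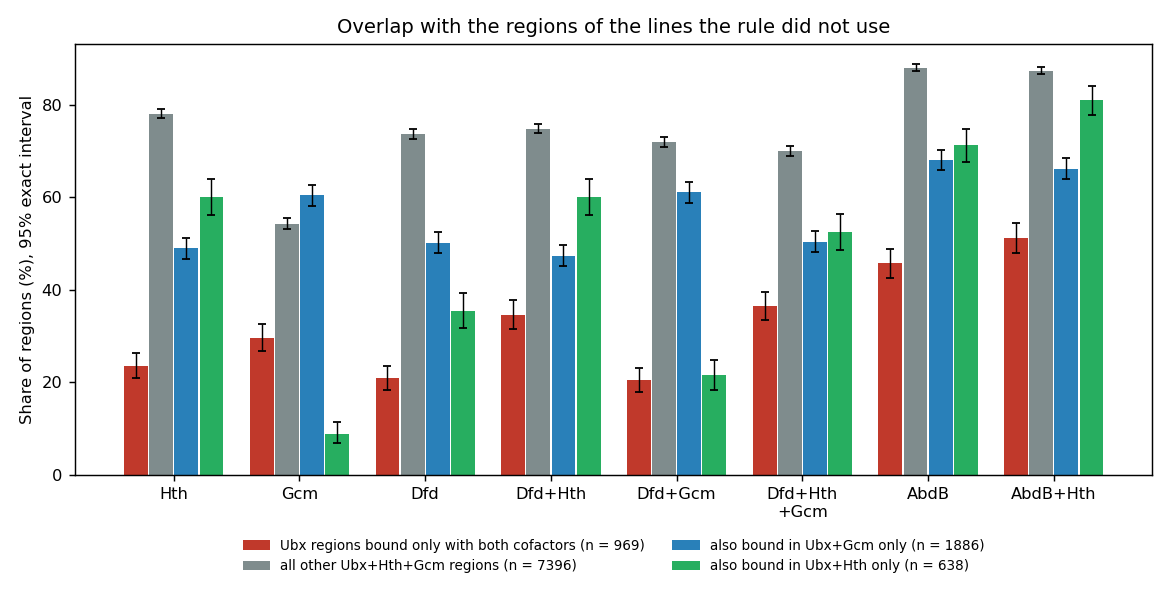
Share of regions (y axis, in %, with 95% exact intervals) that overlapped a region of each line the rule did not use (x axis). Red bars are the 969 dual-cofactor regions, then come all other Ubx+Hth+Gcm regions, the Ubx+Gcm regions and the Ubx+Hth regions. The red bar is the lowest for all lines except Gcm, where the Ubx+Hth regions are lower at 8.93%, and for Dfd+Gcm the Ubx+Hth regions, at 21.5%, did not pass the test against it.

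Among the Dfd lines, the share of dual-cofactor regions was 34.6% with Dfd+Hth and 20.4% with Dfd+Gcm, beside 20.9% with Dfd. The Dfd+Hth list covers 7.91 Mb, the Dfd+Gcm list 5.79 Mb and the Dfd list 6.58 Mb, and the part of list length in these shares was not tested. The Dfd+Gcm share did not pass the test against that of the Ubx+Hth regions (21.5%, difference -1.04 percentage points, adjusted exact p = 0.616). Of the 969, 523 (54.0%) overlapped no region of any Dfd line, 121 (12.5%) were called in Dfd+Hth and Dfd+Hth+Gcm but in neither Dfd nor Dfd+Gcm, and 117 (12.1%) in all 4 Dfd lines. Another 46 (4.75%) were called in Dfd+Hth+Gcm and in no other Dfd line, the pattern that the rule asked for with Ubx. These patterns were counted in the dual-cofactor regions alone, and a difference from the other regions was not tested.

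The same rule applied to Dfd is given without a test. Dfd+Hth+Gcm had 367 of 8790 regions (4.18%, interval 3.77 to 4.61%) that overlapped no Dfd, Dfd+Hth or Dfd+Gcm region, and 42 of the 969 dual-cofactor regions (4.33%) overlapped one of these. Seen from the Dfd side, 41 of the 367 (11.2%) overlapped a dual-cofactor region of Ubx. Of the other Ubx+Hth+Gcm regions, 66 of 7396 (0.892%) overlapped one of the 367. The lists that the rule compares with differ in size: the Ubx, Ubx+Hth and Ubx+Gcm lists hold 5278, 4885 and 8827 regions, and the Dfd, Dfd+Hth and Dfd+Gcm lists 10374, 9865 and 8886.

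A minority of the dual-cofactor regions was not seen elsewhere in the series. No region of any of the 11 other lines overlapped 128 of them (13.2%), against 45 of the other regions (0.608%) when the lines outside Ubx are counted alone. The median number of the 8 lists that overlapped a region was 2 for the dual-cofactor regions and 7 for the others. All 8 lists were present at 4 dual-cofactor regions (0.413%) and at 2279 other regions (30.8%). Of the 128, 21 (16.4%) held an Exd-Hox octamer, 3 (2.34%) a Gcm site and 69 (53.9%) a HoxB site, beside 13.9%, 7.73% and 38.8% of the 841 found in another list.

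The Exd-Hox octamers were more frequent in the dual-cofactor regions than in the rest of the line. The central 200 bp held an octamer in 138 of 969 regions (14.2%, interval 12.1 to 16.6%), against 572 of 7396 other regions (7.73%, interval 7.14 to 8.37%). All regions of the line had 8.49%, windows 1000 bp to either side of the dual-cofactor regions 5.01%, and all 200 bp tiles of the genome 4.65%. The odds ratio over the other regions was 1.98 (log2 0.99, adjusted exact p = 1.10e-09), higher in 5 of 5 arms. It was 2.63 over the Ubx+Gcm regions (5.94%, adjusted exact p = 8.44e-12, 5 of 5 arms), and 0.513 over the Ubx+Hth regions (24.5%, adjusted exact p = 1.16e-06, lower in 4 of 5 arms). The octamer share was intermediate between the classes called with 1 cofactor. When whole regions were scanned, which are wider in the other set, the shares were 25.2% and 21.5% (log2 odds ratio 0.30, adjusted exact p = 0.0157).

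TGATTTAT was the most frequent of the octamers at the dual-cofactor regions, in 83 of 969 (8.57%), against 4.18% of all other regions, 2.97% of the Ubx+Gcm regions and 16.1% of the Ubx+Hth regions. TGATTGAT and TGATTAAT were in 30 each (3.10%), against 1.62% and 2.16% of the other regions in that order. These values for single octamers carry no test.

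The Hth hexamer TGACAG, a site of TALE proteins of the Meis and Hth kind, was in 13.5% of the dual-cofactor regions, against 7.90% of the other regions (8.55% of all, odds ratio 1.82, adjusted exact p = 1.22e-07, 5 of 5 arms). It did not pass the test against the Ubx+Hth regions (14.4%, difference -0.901 percentage points, adjusted exact p = 0.693), and flanking windows of the dual-cofactor regions held it in 8.88%.

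The Gcm site was likewise more frequent than in the rest of the line. It was in 68 dual-cofactor regions (7.02%, interval 5.49 to 8.81%), against 281 other regions (3.80%, interval 3.38 to 4.26%), 4.17% of all regions and 1.29% of the flanking windows. The odds ratio was 1.91 (log2 0.93, adjusted exact p = 2.67e-05), higher in 4 of 5 arms. Against the Ubx+Gcm regions the share was lower (10.7%, odds ratio 0.633, adjusted exact p = 0.00268, 5 of 5 arms), and against the Ubx+Hth regions it was higher (0.627%, adjusted exact p = 1.40e-10, 5 of 5 arms). With Ubx+Hth+Gcm at q 1e-10 against the other lists at q 1e-2 the shares were 7.48% of 147 and 4.91% of 3869 regions, which did not pass the test (adjusted exact p = 0.346). When whole regions were scanned the shares were 11.1% and 8.99% (log2 odds ratio 0.34, adjusted exact p = 0.0447). ATGCGGGC was in 33 dual-cofactor regions, ATGCGGGT in 24, ATACGGGC in 9 and ATACGGGT in 3.

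**Figure D3:**
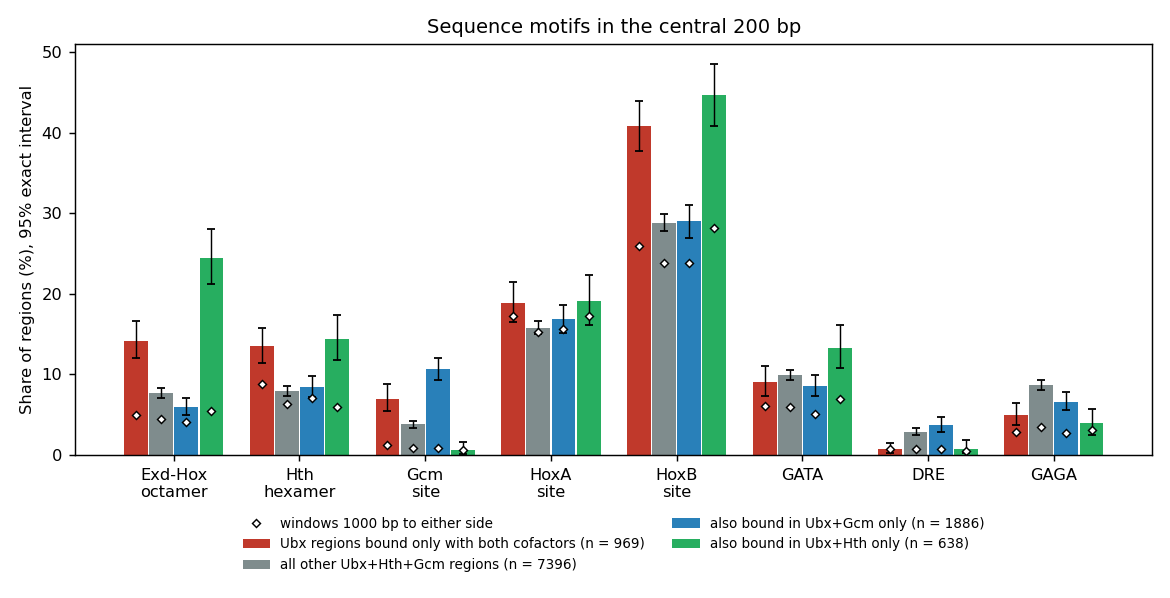
Share of regions with a motif in the central 200 bp (y axis, in %, with 95% exact intervals) for 8 motifs (x axis) in the dual-cofactor regions (red) and the sets for comparison. White diamonds give the share in windows 1000 bp to either side. The red bar lies between the Ubx+Gcm and the Ubx+Hth bar for the octamer (14.2% beside 5.94% and 24.5%) and for the Gcm site (7.02% beside 10.7% and 0.627%).

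Of the Hox sites without a cofactor part, the HoxB site was more frequent in the dual-cofactor regions than in all other regions. The HoxA call depended on the setting, and no alternative setting was run for HoxB. HoxB, which shares 5 bases with the octamer TGATTTAT, was in 40.8% of the dual-cofactor regions, against 28.8% of the other regions (30.2% of all, odds ratio 1.70, adjusted exact p = 2.49e-12, 5 of 5 arms), with 25.9% in the flanking windows. HoxA, searched as CTAAT or TTAAT followed by G or T and then by A, was in 18.9%, against 15.8% of the other regions (16.2% of all, odds ratio 1.24, adjusted exact p = 0.0253), with 17.3% in the flanking windows. The HoxA call was lost without arm 2L (adjusted exact p = 0.149) or without X (0.118), and the direction turned when whole regions were scanned (36.0% against 44.3%). The HoxB share was above that of the Ubx+Gcm regions (29.0%, adjusted exact p = 1.69e-09). It did not pass the test against the Ubx+Hth regions (44.7%, adjusted exact p = 0.172). HoxA passed against neither the Ubx+Gcm regions (16.9%, adjusted exact p = 0.259) nor the Ubx+Hth regions (19.1%, adjusted exact p = 0.989).

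Sites of factors that work at promoters and open chromatin were less frequent than in all other regions or did not pass the test. The DRE (TATCGATA), a core promoter element of housekeeping genes, was in 0.722% of the dual-cofactor regions, against 2.92% of the other regions (2.67% of all, odds ratio 0.242, adjusted exact p = 2.60e-05, lower in 5 of 5 arms). The GAGA element (GAGAGAG) was in 4.95%, against 8.71% (8.27% of all, odds ratio 0.546, adjusted exact p = 6.59e-05, lower in 5 of 5 arms). GATA sites (AGATAAG or TGATAAG), the motif of the hemocyte factor Serpent, were in 9.08% and 9.94% (9.84% of all), which did not pass the test (difference -0.856 percentage points, adjusted exact p = 0.507). The DRE share was below that of the Ubx+Gcm regions (3.71%, adjusted exact p = 1.54e-06) and did not pass the test against the Ubx+Hth regions (0.784%). The GAGA share passed against neither the Ubx+Gcm regions (6.63%, adjusted exact p = 0.123) nor the Ubx+Hth regions (3.92%, adjusted exact p = 0.495). The GATA share was below that of the Ubx+Hth regions (13.3%, adjusted exact p = 0.0144, lower in 5 of 5 arms). It did not pass against the Ubx+Gcm regions (8.59%, adjusted exact p = 0.736). The median GC content of the central windows was 43.0% in the dual-cofactor regions and 43.0% in the others.

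The motifs were concentrated at the region centres. In the dual-cofactor regions the octamers numbered 78 and 72 in the pair of 100 bp bins around the centre, against 20 and 35 in the outermost bins 950 bp away. Gcm sites numbered 27 and 42 in the central bins, against 7 and 6 in the outermost. As the lists hold no summits, the centre of a region stands in for the position of strongest binding.

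**Figure D4:**
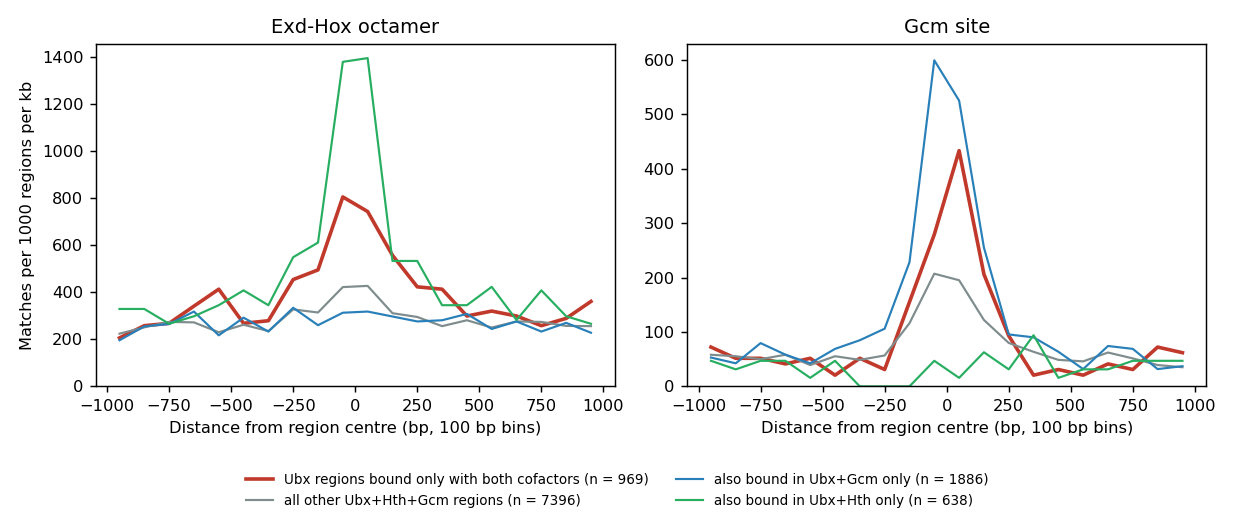
Matches per 1000 regions per kb (y axis) of the Exd-Hox octamer (left) and the Gcm site (right) by distance from the region centre in 100 bp bins (x axis), for the dual-cofactor regions (red) and the sets for comparison. The red line reached 805 for the octamer and 433 for the Gcm site in a central bin.

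The motifs differed in frequency between the cofactor classes of the dual-cofactor regions. A Gcm site was in 61 of the 286 that overlapped a Gcm region (21.3%, interval 16.7 to 26.5%), against 7 of the 683 without one (1.02%). The odds ratio was 26.2 (Fisher's exact test, adjusted over 9 comparisons chosen after the values were seen, adjusted exact p = 3.98e-26), higher in 5 of 5 arms. The octamer went the other way with Hth. It was in 15 of the 228 that overlapped a region of Hth alone (6.58%, interval 3.73 to 10.6%), against 123 of the 741 without one (16.6%, interval 14.0 to 19.5%), with an odds ratio of 0.354 (adjusted exact p = 3.61e-04) and a lower share in 5 of 5 arms. Octamers were more frequent where a Dfd+Hth+Gcm region was present (20.1% against 10.9%, odds ratio 2.06, adjusted exact p = 3.61e-04) and where a Dfd+Hth region was present (18.2% against 12.1%, odds ratio 1.61, adjusted exact p = 0.0268), each in 5 of 5 arms. Beside a Gcm region the octamer shares were 12.9% with and 14.8% without (adjusted exact p = 0.580). At AbdB+Hth regions they were 12.1% with and 16.5% without (adjusted exact p = 0.0806), higher with one in 0 of 5 arms. The Gcm site did not pass for Hth (3.95% with, 7.96% without, adjusted exact p = 0.0685) or Dfd+Gcm regions (6.57% and 7.13%, 0.877). Nor did it pass for Dfd+Hth+Gcm regions (6.23% and 7.47%, 0.580).

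**Figure D5:**
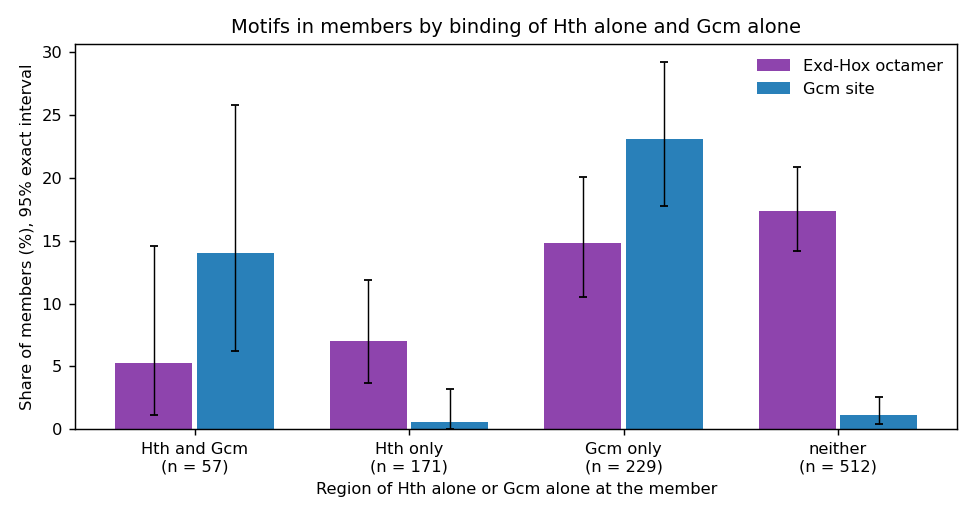
Share of dual-cofactor regions (y axis, in %, with 95% exact intervals) with an Exd-Hox octamer or a Gcm site in the central 200 bp, by whether a region of Hth alone or Gcm alone lay there (x axis). The Gcm site was in 23.1% of the Gcm only class and 1.17% of the class with neither, and the octamer in 17.4% of the class with neither and 7.02% of the Hth only class.

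Most dual-cofactor regions held neither motif. An octamer or a Gcm site was in 192 (19.8%), against 827 of the other regions (11.2%), and 777 (80.2%) held neither. Both were in 14 (1.44%), against 26 of the other regions (0.352%), 18 of the Ubx+Gcm regions (0.954%) and 1 of the Ubx+Hth regions (0.157%). The 14 include the 8 whose sequence is given. The others, 4 of them on arm 2R, were an intron of Ser, which encodes a ligand of Notch, an intron of Mctp, and coding exons of Dcr-2, the Dicer of the siRNA pathway, and of Oatp33Ea, together with regions outside genes near CG8654 and lncRNA:CR44630. A Gcm region was present at 11 of the 14 and an Hth region at 2.

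The stronger dual-cofactor regions differed from the weaker ones in few respects. The 136 with a q 1e-10 region overlapped a region of Hth alone in 12.5%, against 25.3% of the other 833 (Fisher's exact test, adjusted over 11 comparisons chosen after the values were seen, adjusted exact p = 0.00768). They overlapped Dfd+Gcm in 12.5% against 21.7% (adjusted exact p = 0.0429), and their centre lay within 500 bp of a transcript start in 15 of 136, against 176 of 833 (adjusted exact p = 0.0281). The octamer shares were 14.0% and 14.3%, and the Gcm site shares 6.62% and 7.08% (adjusted exact p = 1.00 each).

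The dual-cofactor regions lay away from promoters. The centre was within 500 bp of an annotated transcript start in 191 (19.7%, interval 17.2 to 22.4%), against 3428 of the other regions (46.3%, interval 45.2 to 47.5%) and 43.3% of all. The odds ratio was 0.284 (log2 -1.82, adjusted exact p = 4.69e-59), lower in 5 of 5 arms. Where every list was taken at q 1e-10, 25.3% and 37.2% lay near a start (log2 odds ratio -0.80, adjusted exact p = 1.64e-08). At q 1e-2 the share was also below that of the Ubx+Gcm regions (42.1%, adjusted exact p = 2.33e-33), and did not pass the test against the Ubx+Hth regions (16.8%, difference 2.94 percentage points, adjusted exact p = 0.186). By the feature at the centre, 513 (52.9%) were in introns, against 48.2% of the other regions (48.8% of all, adjusted exact p = 0.0115). Another 269 (27.8%) were outside genes, against 25.1% (25.4% of all, adjusted exact p = 0.105). UTRs or noncoding exons held 132 (13.6%), against 22.9% (21.8% of all, adjusted exact p = 4.59e-11), and coding exons 55 (5.68%), against 3.80% (4.02% of all, adjusted exact p = 0.0115). The intron share was below the Ubx+Hth regions (63.8%, adjusted exact p = 5.58e-05) and above the Ubx+Gcm regions (44.8%, 9.54e-05). UTRs or noncoding exons were below the Ubx+Gcm regions (21.8%, 2.55e-07) and did not pass against the Ubx+Hth regions (12.1%, 0.433). Coding exons were above the Ubx+Hth regions (1.88%, 3.65e-04) and did not pass against the Ubx+Gcm regions (6.79%, 0.300).

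The regions were spread over the genome. Arm 3R, the longest, held the most, followed by 3L with 211, 2L with 188, 2R with 170 and X with 161, which is 10.4% to 12.6% of the Ubx+Hth+Gcm regions of each arm, and chromosome 4 held 4. The nearest other dual-cofactor region was a median of 30857 bp away, and 199 (20.5%) had one within 5000 bp.

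The widest dual-cofactor regions at q 1e-10 were 602 to 852 bp wide at that threshold. After FER, Scr and AdamTS-A came a region outside genes (791 bp, chr2L:21806729-21807519), an intron of Pli (769 bp), which encodes a Pellino protein of Toll signalling, and an intron of pum (718 bp), the translational repressor Pumilio. Next were SKIP (708 bp), which encodes an interactor of the Shal potassium channel, and dpr13 (670 bp), a member of the Dpr family of neuronal immunoglobulin proteins. The last were dlp (663 bp), the glypican Dally-like, and Gr39a (602 bp), a gustatory receptor gene, where the region also overlapped Mondo. Of these 10, a Gcm region was present at 4 (the region outside genes, pum, dpr13 and Gr39a), and none overlapped a region of Hth alone. Dfd+Hth+Gcm regions were present at FER, Scr, AdamTS-A, Pli and dpr13.

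A dual-cofactor region lay in or within 2000 bp of 1103 of 13945 protein-coding genes (7.91%), and a region of any class of the line near 7032 (50.4%). These genes were longer than the rest, with a median length of 5.36 kb, against 2.07 kb for the 12842 genes without one. Of the 1103, 961 had 1 such region and 110 had 2.

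The gene with the most was Sema1a, which encodes a semaphorin of axon guidance, with 5 dual-cofactor regions among its 14 Ubx+Hth+Gcm regions. They lay in chr2L:8571996-8588610, and 3 overlapped a Gcm region and 1 an Hth region. Genes with 4 were Drak, a death-associated protein kinase, Snoo, which encodes a regulator of Smad signalling, cv-2, which encodes a secreted BMP-binding protein, jing, a zinc finger factor, kirre, an immunoglobulin adhesion protein of myoblast fusion, pum, and shep, an RNA-binding protein. A further 24 genes had 3, of which Bicra and CG42342 come first by name and complete the 10 genes named. The dual-cofactor regions made up 57.1% of the 7 Ubx+Hth+Gcm regions of Drak and 26.7% of the 15 of kirre, the ends of the range over these 10 genes, which are 24.4 to 394 kb long.

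The fixed gene lists are given as counts beside the 7.91% of all protein-coding genes, with no test. Of 15 glial genes and Gcm targets, 4 had a dual-cofactor region: pnt, an ETS factor of glia, nrv2, a subunit of the sodium pump, Gs2, a glutamine synthetase, and CadN, the N-cadherin. The CadN region (chr2L:17686167-17686621, in an intron) overlapped a Gcm region, held a Gcm site, and was the only Ubx+Hth+Gcm region near that gene. The pnt region lay in a coding exon, with 18 Ubx+Hth+Gcm regions near the gene in all. Of 15 plasmatocyte genes, srp, the GATA factor of hemocytes, had 1, in an intron with an Hth region. Of 10 crystal cell and lamellocyte genes, msn, a kinase upstream of JNK, and cher, the filamin, had 2 each.

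Of 18 Hox target genes, ap, a LIM homeodomain factor, had 1 and Antp had 2. Of 12 TALE and Hox genes, hth had 1, Scr 1 and Antp 2, and Antp is in both lists. The widest Antp region (chr3R:6932756-6933206, an intron) held a q 1e-10 region and overlapped a Dfd+Hth+Gcm region, as did the Scr region. The hth region (chr3R:10508527-10508899) lay in a UTR or noncoding exon and overlapped a Gcm region. Exons present on the plasmids were masked by the authors, and no dual-cofactor region overlapped a coding exon of Ubx, hth or gcm.

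Of 14 hemocyte signalling genes, Ser and Dif, an NF-kB factor of the Toll pathway, had 1 each. The Ser region (chr3R:27191202-27191480) was the only Ubx+Hth+Gcm region near that gene, held both motifs and overlapped Gcm and Dfd+Hth+Gcm regions. Of 10 ecdysone response genes, 5 had 1 each: usp, the partner of the ecdysone receptor, the nuclear receptors Eip75B, Eip78C and Hr4, and the zinc finger factor br. All 10 ecdysone response genes had a Ubx+Hth+Gcm region of some class. Such regions numbered 2 near usp, 26 near Eip75B, 6 near Eip78C, 8 near Hr4 and 7 near br. The dual-cofactor region of Hr4 held an octamer. The lists hold 10 to 18 genes, so that 1 gene more or less moves a share by several percentage points.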

How the data were processed

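Anti-GFP ChIP-Seq was measured in 12 stable Kc167 lines, with 2 ChIP libraries and 1 input each. Alignment by the authors used Bowtie 1.2.2 and the dm6 genome with scaffolds left out. They ran MACS2 2.1.1.20160309 on each replicate with its input, at q 1e-2 and again at q 1e-10, masked plasmid exons, and merged overlapping regions of both replicates. The deposited lists give starts and ends in bases, and a score that is 0 throughout. They hold no summits, signal or counts, so that depth set no interval. The read depth of the Ubx+Hth+Gcm libraries is not given in the sources used here.

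The lists were read with numpy 2.4.6 and compared with the Release 6 genome and the Ensembl 115 annotation, the build the authors name. Overlap was 1 bp, and bedtools 2.31.1 gave equal counts in 11 of 11 comparisons. Motifs were scanned in the central 200 bp on both strands. Position used protein-coding and noncoding RNA genes. Shares were compared by two-sided Fisher's exact test (scipy 1.17.1), with Benjamini-Hochberg adjustment over 24 overlap, 24 motif and 15 position comparisons at 0.05, and 95% exact (Clopper-Pearson) intervals. The script was tested on simulated data.

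The members, motifs, gene lists and tests were chosen with earlier results of these data known. Named are the 10 widest regions at q 1e-10, the 10 genes with most members, fixed-list genes with a member, members with both motifs, and the regions nearest the overlap threshold. Sequences were taken in order of width, and none from arm 2R. Alternatives were other thresholds, overlaps, windows and distances, each arm left out, regions with no q 1e-10 region, and Mantel-Haenszel odds ratios over 4 width classes. Those over 4 GC classes were chosen after seeing the data. The input libraries and ATAC-Seq were not analysed here.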

Additional observations from a re-analysis of the deposited data

How the results depend on the processing

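Over 98 alternative values of the 7 tested results, 89 kept the direction and the side of the threshold. No alternatives were run for the HoxB, Hth hexamer, GATA, DRE and GAGA motifs. Log2 odds ratios against all other regions ranged from -5.29 to -2.69 for Hth, at most -0.83 for Gcm and -3.01 to -1.23 for Dfd+Hth+Gcm regions, from 0.30 to 1.31 for the octamer, and from -2.21 to -0.80 for transcript starts. The Gcm site lost its call with Ubx+Hth+Gcm at q 1e-10 against other lists at q 1e-2 (0.65), and its other alternatives ranged from 0.34 to 1.30. The HoxA site lost its call with all lists at q 1e-10 (0.33), with Ubx+Hth+Gcm alone at q 1e-10 (0.32), with members over 1 kb from other Ubx regions (0.29), without arm 2L (0.25) or X (0.25), with regions that hold no q 1e-10 region (0.29) and with 400 bp scanned (0.22). It reversed with whole regions scanned (-0.50), where the other regions are wider. The number of members was 147 with Ubx+Hth+Gcm at q 1e-10 against the other lists at q 1e-2, and between 655 and 1153 otherwise. Genes with a member numbered 651 for gene bodies alone and 2636 within 10 kb. No paired analysis was possible because the libraries of a line were merged into 1 list. For the same reason no replicate could be left out, and regions under the threshold in the other lines cannot be told from absent ones.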
